A study of Sus scrofa with 8 samples.

Results

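The genes described here are those of the insulin-like growth factor (IGF) axis that the deposited table names: the ligand IGF2, the receptors IGF1R and IGF2R, and the binding proteins IGFBP2 to IGFBP7. They were taken by gene name from a table of 25578 pig genes, where 8 of the 9 names match a symbol directly. The row of IGF2 carries only an Ensembl identifier as its name, and was found through its deposited description, which gives the gene's full name and its NCBI gene number. All 9 genes thus have a row. The study followed pig (Sus scrofa) pluripotent stem cells (PSC) as they were induced through definitive endoderm (DE) and anterior foregut endoderm (AFE) to lung progenitor organoids (LPO). Polyadenylated RNA of each stage was sequenced in 2 libraries, 8 in all. The labels give no genotype, agent or day for any stage. Nothing says that the paired libraries were grown as different cultures, so each p-value reflects only how these libraries spread, which may be technical.

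IGF ligands bind IGF1R, a receptor tyrosine kinase that signals through the insulin receptor substrates, PI3-kinase and AKT to growth and survival. IGF2R, the cation-independent mannose 6-phosphate receptor, has no kinase; it takes IGF2 into the cell for breakdown in lysosomes and carries lysosomal enzymes. The binding proteins are secreted carriers that hold IGFs away from the receptor or release them locally, often after a protease cuts the carrier. IGF2 is the IGF of the embryo, an imprinted gene expressed from the paternal copy in most fetal tissues, and IGF signalling is needed for growth of the fetal lung.

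Levels per library are given as the authors' FPKM (fragments per kilobase of transcript and per 1e6 fragments), which can be compared between genes. Changes were tested on the deposited counts, scaled with TMM and expressed per 1e6 counts (CPM). Calls rest on edgeR's quasi-likelihood test over 19346 genes with Benjamini-Hochberg adjustment at 0.05, the source of every adjusted p here unless another tool is named. About 4 counts stood for 1 read pair, and libraries held 36004372 to 67566269 counts, or about 9001093 to 16891567 read pairs. Of counts from 1 to 12, 46.4% to 50.7% per library were 4, 8 or 12, so numbers of read pairs are rough. TMM factors were 0.901 to 0.954 in PSC, DE and AFE and 1.26 and 1.27 in LPO. Without TMM, on library totals, the median log2 change of all genes in LPO against AFE was 0.58 instead of 0.09, and 64.9% instead of 50.5% of called genes were higher in LPO. FPKM carry no TMM scaling, so LPO stands higher against the other stages in FPKM than in CPM. With 2 libraries a stage, exact permutation could give no p below 0.333. Markers of the stages followed the labels in part. POU5F1, the core pluripotency factor, was at 3063 and 3457 FPKM in PSC and at most 0.04 in LPO. Of 6 pluripotency markers, 5 were lower in LPO than in PSC (28.8% of all genes) and 1, SOX2, was higher (41.5% of all genes). SOX2 was at 5.83 and 4.11 FPKM in PSC and at 38.06 and 38.37 in LPO, and LIN28A was highest in DE (44.53 and 31.65 FPKM). CXCR4, of the endoderm markers, was at 15.66 and 11.17 FPKM in DE and at 17.47 and 16.63 in AFE. SOX17, an endoderm factor, was highest in DE (91.7 and 83.0 FPKM), and the lung factor NKX2-1 was listed at 0 in PSC and DE, at 7.94 and 7.62 FPKM in AFE and at 18.7 and 18.9 in LPO. Of the surfactant protein genes, SFTPB was listed at 0 in PSC and DE, at 7.59 and 7.09 FPKM in AFE and at 3.68 and 3.32 in LPO, whereas SFTPC reached 0.36 and 0.57 in LPO and SFTPD 0 and 0.09.

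Every member differed among the 4 stages (F test, adjusted p = 4.7e-08 to 1.7e-05), as did 79.2% of all genes tested. In DE against PSC 6 of the 9 members rose and 1 fell, where 53.8% of all genes were called, 30.8% higher and 23% lower. From DE to AFE 5 rose and 3 fell, where 35.3% of all genes were called, 17.9% higher and 17.4% lower. LPO against AFE had 6 members higher and 2 lower, where 59.8% of all genes were called, 30.2% higher and 29.6% lower. From end to end, in LPO against PSC, all 9 members were higher, at a background of 70.3% of genes called, 41.5% higher and 28.8% lower. The members' median log2 change there was 3.04, beside 0.49 over all genes tested. Across 2 steps, comparisons added after the data were seen, AFE against PSC had 7 members higher and 1 lower (56.8% of all genes called, 32.8% higher and 24% lower). LPO against DE had 8 higher and 1 lower (62.7% called, 31.6% higher and 31.1% lower). All 9 members passed the filter on low counts. Adjacent comparisons share the libraries of the stage between them, and LPO against PSC shares libraries with both outer steps.

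**Figure D1:**
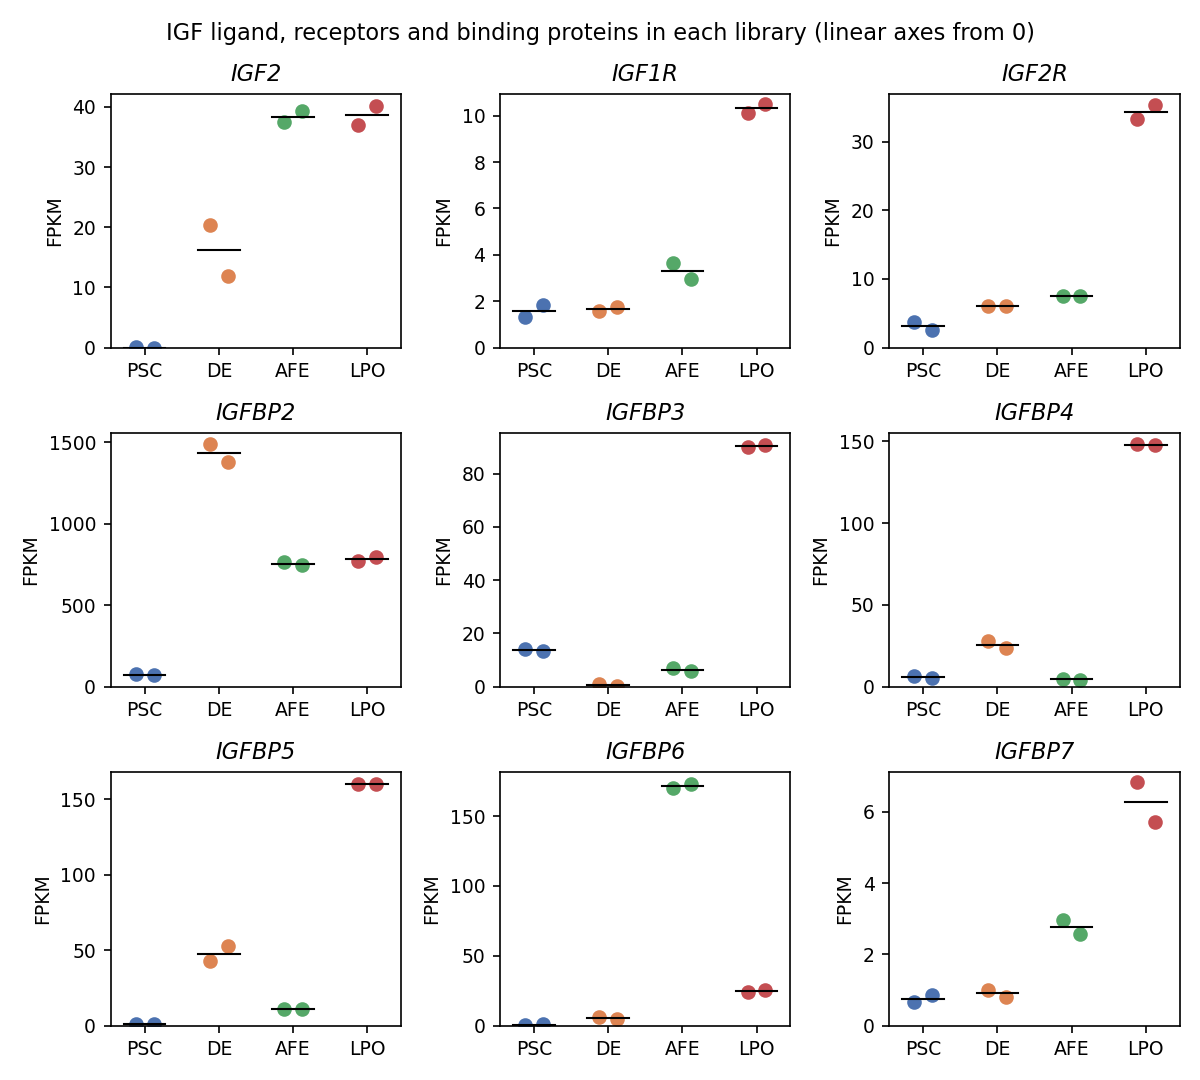
FPKM (linear axes from 0, one scale per gene) of the 9 genes in PSC, DE, AFE and LPO, with a point per library and a bar at the mean of the 2 libraries. Both LPO libraries lie above all others for IGF1R, IGF2R, IGFBP3, IGFBP4, IGFBP5 and IGFBP7, whereas IGFBP2 is highest in DE and IGFBP6 in AFE.

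The ligand IGF2 was all but absent from pluripotent cells and appeared with endoderm. It lies on chromosome 2 from 1469183 to 1496123 on the minus strand (coordinates as deposited, of a build that the sources used here do not name). Its level was 0.03 and 0 FPKM in PSC, 20.4 and 11.97 in DE, 37.5 and 39.3 in AFE, and 37.0 and 40.2 in LPO. The PSC libraries do not overlap those of any other stage, and the AFE and LPO libraries lie above both DE libraries. PSC held 8 and 0 counts of IGF2, about 2 read pairs in all, against about 3285 in DE. The ratio of DE to PSC was 1058 (95% counting interval 293 to 8736, which covers counting error only; adjusted p = 2.5e-06). The ratio of LPO to PSC was 1852 (interval 512 to 15292, adjusted p = 5.7e-07). Fitted log2 changes against PSC are no bound here: that of DE was 10.02, 9.15 without PSC replicate 2, and 15.77 without PSC replicate 1, which leaves PSC at 0.

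From DE to AFE IGF2 rose 2.46-fold (114 ± 41.8 to 280 ± 9.81 CPM, SD, n = 2; log2 change 1.30, SE 0.262, adjusted p = 0.0066). Its DE libraries differed by 1.70-fold, with replicate 1 the higher. In the same pair, the summed FPKM of 8 stromal markers was 41.9 in DE replicate 1 and 19.9 in replicate 2, and that of 6 endothelial markers 13.8 and 7.99. Single genes carried much of both gaps, COL1A1 with 17.9 and 3.15 FPKM and KDR with 11.69 and 6.33. POSTN was the same in both (0.16 and 0.16). DCN (0.11 and 0.13), LUM (0 and 0.06) and VWF (0.11 and 0.14) were higher in replicate 2, and the remaining markers of both lists in replicate 1. The part of stromal or endothelial cells in the IGF2 level was not tested. Between AFE and LPO no change in IGF2 was called (log2 change -0.49, adjusted p = 0.14). The 2 stages met in FPKM and differed by 1.40-fold in CPM, so the size of the difference depends on the scaling. IGF2 was called lower in LPO with counts divided by 4 (adjusted p = 0.04) and with only these 4 libraries fitted (adjusted p = 1.2e-04).

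Both receptors were at their highest in LPO, and IGF2R was at its lowest in PSC. IGF1R, the signalling receptor (chromosome 1, 137387825 to 137691058, minus strand), was at 1.34 and 1.83 FPKM in PSC, 1.59 and 1.75 in DE, 3.63 and 2.97 in AFE, and 10.1 and 10.5 in LPO. PSC and DE overlap, and no change was called between them (log2 change 0.12, adjusted p = 0.63); the sign turned with DESeq2 size factors, in the DESeq2 Wald test and without PSC replicate 1. IGF1R then rose 2.04-fold into AFE (adjusted p = 0.0028) and 2.22-fold into LPO (adjusted p = 5.8e-04), 4.90-fold in all from PSC to LPO (12.5 ± 2.95 to 61.0 ± 1.74 CPM, log2 change 2.29, SE 0.180, adjusted p = 1.0e-05).

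IGF2R, the clearance receptor (chromosome 1, 7368103 to 7472548, minus strand), was at 3.71 and 2.59 FPKM in PSC, 6.06 and 6.10 in DE, 7.52 and 7.49 in AFE, and 33.3 and 35.4 in LPO. No pair of stages overlapped. It rose 1.98-fold from PSC to DE (adjusted p = 5.7e-04) and 3.25-fold from AFE to LPO (79.2 ± 0.00547 to 257 ± 11.6 CPM, log2 change 1.70, SE 0.140, adjusted p = 1.9e-05). The step from DE to AFE missed the threshold (1.28-fold, adjusted p = 0.083), and was called in 6 of the alternatives, such as the DESeq2 Wald test (adjusted p = 0.034).

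Per length, the clearance receptor exceeded the signalling receptor in every library. The ratio of IGF2R to IGF1R in FPKM was 2.77 and 1.42 in PSC, 3.81 and 3.49 in DE, 2.07 and 2.52 in AFE, and 3.29 and 3.37 in LPO. The PSC libraries were the farthest apart, with IGF1R higher in replicate 2 and IGF2R higher in replicate 1. The ratio was higher in both DE and both LPO libraries than in any PSC or AFE library.

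**Figure D2:**
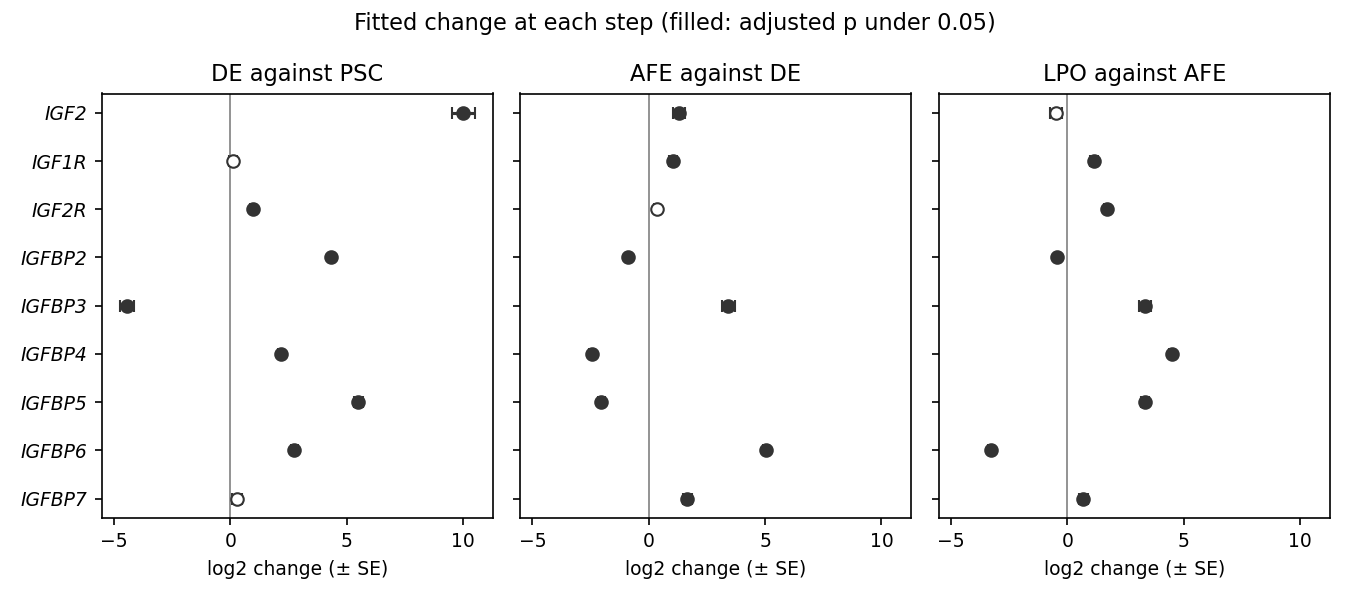
Fitted log2 change (x axis, ± SE) of each gene at each of the 3 steps from PSC through DE and AFE to LPO; filled points have an adjusted p under 0.05. IGFBP3 runs against most other binding proteins at the first step, and IGFBP4, IGFBP5 and IGFBP6 turn direction between the second step and the third; the IGF2 value at the first step (10.02) rests on about 2 read pairs in PSC.

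IGFBP2, a carrier abundant in fetal tissue that also binds integrins, was the most abundant of the 9 genes in all libraries. It lies on chromosome 15 from 118822047 to 118850976 on the plus strand. Its level was 75.8 and 70.0 FPKM in PSC, 1488 and 1375 in DE, 765 and 746 in AFE, and 772 and 798 in LPO. In both DE libraries it ranked 38 among the 25578 genes by FPKM, and in PSC 842 and 895. IGFBP2 rose 20.1-fold from PSC to DE (114 ± 4.40 to 2300 ± 125 CPM, log2 change 4.33, SE 0.0666, adjusted p = 2.9e-08). It then fell by 0.87 on the log2 scale into AFE (adjusted p = 2.9e-05). The libraries of DE stood clear of all others. Of 5 hepatic-type markers, 3 were also higher in DE than in PSC (30.8% of all genes). The summed FPKM of the 5 was 8958 and 8764 in DE, nearly all of it the apolipoprotein APOA1, against 21.6 and 19.4 in PSC and 166 and 176 in AFE. ALB and TTR were at most 0.05 in DE. The part of hepatic-type cells in the IGFBP2 level was not tested. A further fall of 0.44 into LPO was called with TMM (adjusted p = 3.0e-04), but on library totals and in FPKM LPO was slightly above AFE (log2 change on totals 0.0485, adjusted p = 0.51), so its direction depends on the scaling.

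IGFBP3, IGFBP4 and IGFBP5 reached their highest levels in LPO by different routes. IGFBP3, the main carrier in serum (chromosome 18, 50003022 to 50010690, plus strand), was at 14.0 and 13.4 FPKM in PSC, 0.84 and 0.36 in DE, 6.87 and 5.70 in AFE, and 90.1 and 90.9 in LPO. It was the only member that fell as endoderm formed, by 4.46 on the log2 scale (34.4 ± 0.420 to 1.56 ± 0.872 CPM, SE 0.298, adjusted p = 9.8e-06). Its rise into AFE was 10.7-fold (adjusted p = 9.5e-05) and that into LPO 10.2-fold (adjusted p = 1.4e-05). The DE libraries differed by 2.30-fold; without DE replicate 1, the lower DE level moved the log2 change to -5.18 at the first step and to 4.15 at the next. AFE was still below PSC (log2 change -1.03, adjusted p = 0.0078), a comparison added after the data were seen, whose call ended without AFE replicate 2 (-0.904, adjusted p = 0.065).

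IGFBP4, an inhibitor of IGF action that the protease PAPPA cleaves (chromosome 12, 21965502 to 21980945, minus strand), was at 6.23 and 5.52 FPKM in PSC, 27.8 and 23.7 in DE, 4.92 and 4.23 in AFE, and 148 and 148 in LPO. It went up, down and up again. The changes were a rise of 4.49-fold into DE (adjusted p = 3.2e-06), a fall of 2.44 on the log2 scale into AFE (adjusted p = 7.1e-06) and a rise of 22.9-fold into LPO (10.5 ± 1.08 to 241 ± 0.121 CPM, log2 change 4.52, SE 0.124, adjusted p = 2.0e-07). That last change was the largest of any member at this step. AFE and PSC did not overlap but were close (log2 change -0.28, adjusted p = 0.073), and AFE was called lower with DESeq2 size factors (-0.45, adjusted p = 0.0098) and in 7 of the other alternatives.

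IGFBP5, a carrier that binds extracellular matrix (chromosome 15, 118857625 to 118878120, minus strand), showed the same turns from a lower start. It was at 1.29 and 0.86 FPKM in PSC, 42.7 and 52.6 in DE, 11.1 and 11.3 in AFE, and 160.0 and 160.4 in LPO. None of the stages overlapped. IGFBP5 rose 45.1-fold into DE (adjusted p = 5.5e-07), fell by 2.04 on the log2 scale into AFE (adjusted p = 5.3e-05) and rose 10.2-fold into LPO (71.4 ± 1.08 to 726 ± 3.35 CPM, log2 change 3.35, SE 0.163, adjusted p = 1.3e-06). From PSC to LPO the rise was 111-fold (log2 change 6.80, adjusted p = 7.9e-08), the widest of any binding protein.

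These 3 carriers are also products of fibroblasts, and stromal genes moved in the same libraries. The summed FPKM of 8 stromal markers (COL1A1, COL1A2, COL3A1, PDGFRA, PDGFRB, DCN, LUM and POSTN) was 1.60 and 1.52 in PSC, 41.9 and 19.9 in DE, 55.6 and 56.1 in AFE, and 1779 and 1808 in LPO. All 8 were higher in LPO than in PSC (41.5% of all genes), and 7 of 8 were higher in LPO than in AFE (30.2% of all genes). DCN, LUM and POSTN were at 0 in PSC. From DE to AFE, 5 of the stromal markers rose and 1 fell (17.9% and 17.4% of all genes), while IGFBP4 and IGFBP5 fell and IGFBP3 rose. In bulk RNA, fewer cells of a type and less RNA per cell cannot be told apart, and the part of stromal cells in the LPO levels was not tested. Of 5 epithelial markers, 4 were lower and 1 (CDH1) higher in LPO than in AFE (29.6% and 30.2% of all genes). The summed FPKM of these 5 was 14770 and 15160 in AFE and 2698 and 2815 in LPO. The keratin genes KRT8, KRT18 and KRT19 fell by 2.78, 4.12 and 2.33 (log2; adjusted p = 1.5e-07, 1.4e-07 and 2e-07). EPCAM was at 86.9 and 77.8 FPKM in AFE and at 64.8 and 67.4 in LPO, and CDH1 at 75.7 and 73.5 in AFE and at 132 and 133 in LPO.

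IGFBP6, a carrier that prefers IGF2 to IGF1, marked the foregut stage. It lies on chromosome 5 from 18352400 to 18357225 on the plus strand. Its level was 0.75 and 0.89 FPKM in PSC, 6.01 and 4.77 in DE, 170 and 173 in AFE, and 24.3 and 25.7 in LPO. Both AFE libraries were above every other library, and no stages overlapped. The rise into AFE was 32.9-fold (12.1 ± 1.95 to 397 ± 6.86 CPM, log2 change 5.04, SE 0.135, adjusted p = 5.9e-07), the largest of any member at that step, after a rise of 6.68-fold into DE (adjusted p = 3.6e-06). Into LPO it fell by 3.27 (log2, SE 0.123, adjusted p = 5.0e-07), opposite to IGFBP3, IGFBP4 and IGFBP5 at the same step. LPO was still 22.8-fold above PSC (adjusted p = 1.3e-07).

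IGFBP7 is a distant relative that binds IGFs weakly and is also made by endothelium (chromosome 8, 56279896 to 56357822, minus strand). By FPKM it was the least abundant carrier in PSC, AFE and LPO, and in DE it stood above IGFBP3 only. It was at 0.66 and 0.85 FPKM in PSC, 1.00 and 0.81 in DE, 2.95 and 2.58 in AFE, and 6.82 and 5.70 in LPO. PSC and DE overlapped, with no change called (log2 change 0.29, adjusted p = 0.27). It rose 3.15-fold into AFE (adjusted p = 6.0e-04) and 1.61-fold into LPO (adjusted p = 0.017); the second call ended without AFE replicate 2 (log2 change 0.60, adjusted p = 0.11) or LPO replicate 1 (0.54, adjusted p = 0.14). Its gene overlaps POLR2B, an RNA polymerase II subunit gene on the opposite strand, over 5116 bases, and POLR2B held 5216 to 7062 counts per library against 135 to 2108 for IGFBP7. The libraries were stranded by protocol but the strand setting of the counting is not stated, so IGFBP7 is uncertain to that extent. The part of POLR2B reads in the IGFBP7 counts was not tested. The 6 endothelial markers summed to 0.37 and 0.38 FPKM in PSC, 13.8 and 7.99 in DE, 2.38 and 2.40 in AFE, and 9.46 and 9.27 in LPO. Most of the sum was KDR in DE (11.69 and 6.33 FPKM) and in LPO (6.75 and 5.94), while ERG was highest in LPO (1.70 and 2.09 FPKM). Of the 6, 2 (KDR and ERG) were higher and 1 (CDH5) lower in LPO than in AFE, where 30.2% of all genes were higher and 29.6% lower. CDH5 was at 0.42 and 0.43 FPKM in AFE and at 0.10 and 0.17 in LPO. No change was called for PECAM1, TEK and VWF. The part of endothelial cells in the IGFBP7 level was not tested. CDH5, TEK, VWF and ERG, markers of endothelium, were at 0 in PSC.

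Summed over the 6 binding protein genes, FPKM rose sharply with endoderm, and the make-up of the sum then shifted from stage to stage. The sum was 98.7 and 91.5 FPKM in PSC, 1566 and 1458 in DE, 960 and 943 in AFE, and 1202 and 1228 in LPO. DE was above LPO on this scale, whereas with each library's FPKM rescaled to a total of 1e6 DE (3434) and LPO (3504) were close and AFE (2040) was lower. The share of IGFBP2 was 76.7% in PSC, stood at 94.7% in DE, and was 79.4% in AFE and then 64.6% in LPO (means of 2 libraries, SD at most 0.482 percentage points). The second carrier changed with each stage. It was IGFBP3 in PSC (14.4% ± 0.330), IGFBP5 in DE (3.17% ± 0.626), IGFBP6 in AFE (18.0% ± 0.485) and IGFBP5 in LPO (13.2% ± 0.178), there followed by IGFBP4 (12.2% ± 0.214) and IGFBP3 (7.45% ± 0.0670). These shares do not depend on the scaling between libraries. Without IGFBP2 the sum was 22.9 and 21.5 FPKM in PSC, 78.3 and 82.3 in DE, 196 and 197 in AFE, and 429 and 430 in LPO. Against the ligand, carrier mRNA stood at 76.9 and 122 times the FPKM of IGF2 in DE, 25.6 and 24.0 times in AFE, and 32.5 and 30.5 times in LPO.

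**Figure D3:**
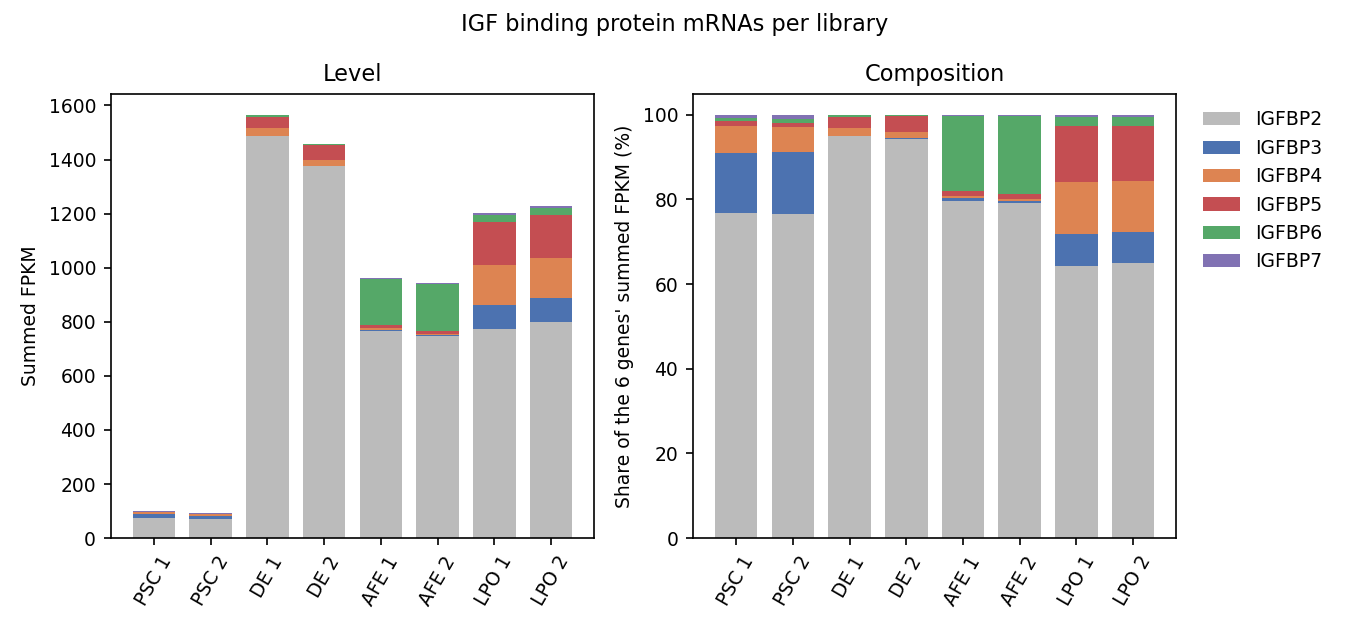
Summed FPKM of the 6 binding protein genes in each library (left, stacked from 0) and each gene's share of that sum in percent (right). IGFBP2 holds most of every bar, IGFBP6 takes 17.7% and 18.4% in the AFE libraries, and IGFBP3, IGFBP4 and IGFBP5 together widen in LPO.

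Position in the genome was not used in choosing the genes. As background, vertebrate IGFBP genes are thought to have spread together with the HOX clusters. IGFBP4 lies 2.80 Mb from HOXB1 and IGFBP6 0.794 Mb from HOXC13. IGFBP2 and IGFBP5 share the chromosome of HOXD1, at 36.8 and 36.9 Mb from it, and IGFBP7 has no HOX gene on its chromosome. IGFBP2 and IGFBP5 lie end to end on opposite strands, 6.65 kb apart. Over the 8 libraries Pearson r of log2 CPM between this pair was 0.819, a description of libraries that share a stage by pairs. Both rose into DE and fell into AFE, and they parted in LPO, where IGFBP5 rose 10.2-fold and IGFBP2 did not rise.

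The patterns of the members were not alike: across the 8 libraries r between members ran from -0.457 (IGFBP2 with IGFBP3) to 0.962 (IGF1R with IGFBP7). IGF1R and IGF2R had an r of 0.919, and IGF2 was closest to IGFBP2 (0.922). Among 10429 genes with a symbol, a mean of 1 FPKM or more and a call among stages, those most like each member over the same 8 libraries were as follows. For IGF2 they were HAGHL and YJU2B (r = 0.998 and 0.997). For IGF1R the lysosomal or secreted enzymes SIAE and MANBA (both 0.996) came first, and for IGF2R IRF2BP2 and ABCC5 (both 0.999). IGFBP2 had SLC7A7, an amino acid transporter subunit, and HS2ST1, a heparan sulfate sulfotransferase (0.998 and 0.997). IGFBP3 had CTSC, a lysosomal protease, and FBXL5 (both 0.995), and IGFBP4 had ARF4 and NFE2L1 (both 0.998). Nearest to IGFBP5 were the basement membrane linker NID2 and ARAP3 (both 0.995). IGFBP6 had the kinase ARAF (0.998) and the water channel AQP3 (0.997), which stood at 113 and 114 FPKM in AFE and at most 8.98 in any other library. IGFBP7 had TIPARP and ST13 (both 0.996). The 8 points are 4 stages of 2 libraries each, and r is given as a description with no test. A high r reflects the shape of a pattern and not its size. HAGHL was at 1.86 and 1.37 FPKM in PSC and at 7.41 and 8.28 in LPO, beside 0.03 and 0, then 37.0 and 40.2, for IGF2. ARF4 ran from 65.66 to 190.49 FPKM, beside 4.23 to 148.12 for IGFBP4. Other partners moved widely, such as NID2, from 0.17 and 0.18 FPKM in PSC to 20.99 and 21.95 in LPO.

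The rest of the pathway was followed through 66 further genes, 62 of them in the file and 61 tested. From PSC to DE 25 rose and 12 fell, against 30.8% and 23% of all genes. From DE to AFE 6 rose and 22 fell, against 17.9% and 17.4%, and from AFE to LPO 35 rose and 12 fell, against 30.2% and 29.6%. From end to end 42 rose and 11 fell, against 41.5% and 28.8%. The median log2 changes of these 4 comparisons were 0.38, -0.15, 0.73 and 1.40, beside 0.08, 0, 0.09 and 0.49 over all genes. With the few genes at 3 read pairs or fewer in a stage taken at their bound or ratio, the first 2 medians became 0.36 and -0.13. The count of 28 at AFE against DE was lower when either AFE library was left out. The share of all genes called in those fits is not given here, so the drop has no background beside it. INS, IGFBP1, AKT1 and H19 were not analysed here.

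Among ligands and receptors, IGF1 held 0 counts in PSC, 4 and 5 in DE, 9 and 4 in AFE and 9 and 16 in LPO. This amounts to a few read pairs, so IGF1 was not detectable in PSC at this depth and did not pass the filter. The insulin receptor INSR was at 0.14 to 0.52 FPKM before LPO and rose to 3.30 and 3.53 FPKM in LPO (8.41-fold above AFE, adjusted p = 1.1e-04). M6PR, the smaller mannose 6-phosphate receptor, went the other way from IGF2R, with 17.0 and 20.0 FPKM in PSC and 7.31 and 4.32 in LPO (log2 change -2.08, adjusted p = 0.001). Of other proteins with a related domain or in the serum complex, 5 rose and none fell among 8 in LPO against PSC (41.5% of all genes higher, 28.8% lower). CCN1, a matrix-associated signalling protein, rose 10.1-fold into DE (adjusted p = 5.4e-06), CCN3 rose 4.37-fold into AFE (adjusted p = 0.011), and CRIM1, a membrane protein, was 6.35-fold higher in LPO than in PSC (adjusted p = 1.2e-05). CRIM1 overlaps FEZ2 on the opposite strand and is uncertain. IGFALS, which joins IGFBP3 and IGF in serum, ran against IGFBP3: it rose 5.66-fold into DE (adjusted p = 1.0e-05) and fell by 2.57 (log2) into LPO (adjusted p = 4.9e-06).

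Of 12 proteases, processing enzymes and their inhibitors, 11 were higher and 1 lower in LPO than in PSC, where 41.5% of all genes were higher and 28.8% lower. FURIN, a convertase that matures IGF1R among others, rose 8.45-fold into DE (adjusted p = 7.1e-07) and fell by 1.91 (log2) into AFE (adjusted p = 1.2e-05). CTSD, a lysosomal protease that IGF2R can carry, rose from 24.3 and 24.2 FPKM in PSC to 193 and 189 in DE (8.08-fold, adjusted p = 1.0e-07). STC1, an inhibitor of PAPPA, rose 12.5-fold into DE, fell by 1.69 (log2) into AFE and rose 15.4-fold into LPO (adjusted p = 4.6e-04, 0.016 and 1.2e-04), the same turns as IGFBP4 and IGFBP5. PAPPA itself was at 0 counts in PSC and AFE and at 0.20 and 0.13 FPKM in LPO. The metalloprotease ADAM28 was at 0 in PSC and at 4.06 and 3.98 FPKM in AFE and 5.64 and 5.59 in LPO, at least 54.1-fold higher in LPO than the floor of 3 read pairs in each PSC library (adjusted p = 5.6e-07).

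Downstream, 17 of 30 adaptor, kinase and feedback genes rose and 9 fell in LPO against AFE, where 30.2% of all genes were higher and 29.6% lower; the share that fell was near that of all genes. The adaptors that IGF1R phosphorylates did not move alike. IRS2 was at 0.20 to 1.16 FPKM before LPO and at 8.25 and 8.88 in LPO (6.12-fold above AFE, adjusted p = 5.0e-04), and IRS1 was 4.82-fold higher in LPO than in PSC (adjusted p = 2.0e-04), with a rise called from DE to AFE (2.00-fold, adjusted p = 0.026) and none from AFE to LPO (adjusted p = 0.071). IRS4 was at 0.82 and 1.38 FPKM in PSC and at most 0.23 in any later library, having fallen by 3.68 (log2) into DE (adjusted p = 6.2e-04). PIK3R1, the regulatory subunit of PI3-kinase, rose 19.6-fold into DE (adjusted p = 1.9e-07) and 45.8-fold from PSC to LPO (adjusted p = 4.1e-08). The catalytic subunit gene PIK3CB was highest in DE, at 9.20 and 7.77 FPKM against at most 2.12 elsewhere. The kinase PDPK1 rose 25.1-fold into LPO from a low start (0.16 and 0.16 to 5.39 and 6.08 FPKM, adjusted p = 1.1e-05). The exchange factor SOS1 (4.31-fold, adjusted p = 1.8e-06) and RICTOR, a subunit of mTOR complex 2 (6.56-fold, adjusted p = 1.5e-05), rose at the same step.

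Brakes on the pathway moved in both directions at that last step. The mTOR inhibitor gene TSC1 rose 3.31-fold (adjusted p = 4.3e-06) and FOXO3, a factor that AKT restrains, 6.69-fold (adjusted p = 5.5e-07). FOXO1 fell at the first 2 steps, rose 1.98-fold into LPO (adjusted p = 1.3e-04) and there was still 1.73 (log2) below PSC (adjusted p = 3.5e-06). The receptor-binding adaptors GRB10 and GRB14, which dampen insulin and IGF receptors, fell by 1.55 and 2.26 (log2) from AFE to LPO (adjusted p = 5.9e-06 and 1.6e-05).

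Of 8 genes that act on IGF2 RNA or its transcription, 2 rose and 2 fell from PSC to DE, near the shares of all genes (30.8% higher, 23% lower), and 5 rose and 1 fell from AFE to LPO (30.2% and 29.6% of all genes). HMGA2, a chromatin protein of embryonic cells, was at 0.21 to 0.69 FPKM before LPO and at 6.17 and 6.79 in LPO (7.55-fold above AFE, adjusted p = 4.1e-05). ZBED6, the repressor of IGF2 known from pig muscle, was at 0 to 0.15 FPKM before LPO and at 5.92 and 6.01 in LPO (adjusted p = 8.0e-04 against AFE). In LPO, IGF2 itself was at 37.0 and 40.2 FPKM. A link between the levels of ZBED6 and IGF2 was not tested.

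**Figure D4:**
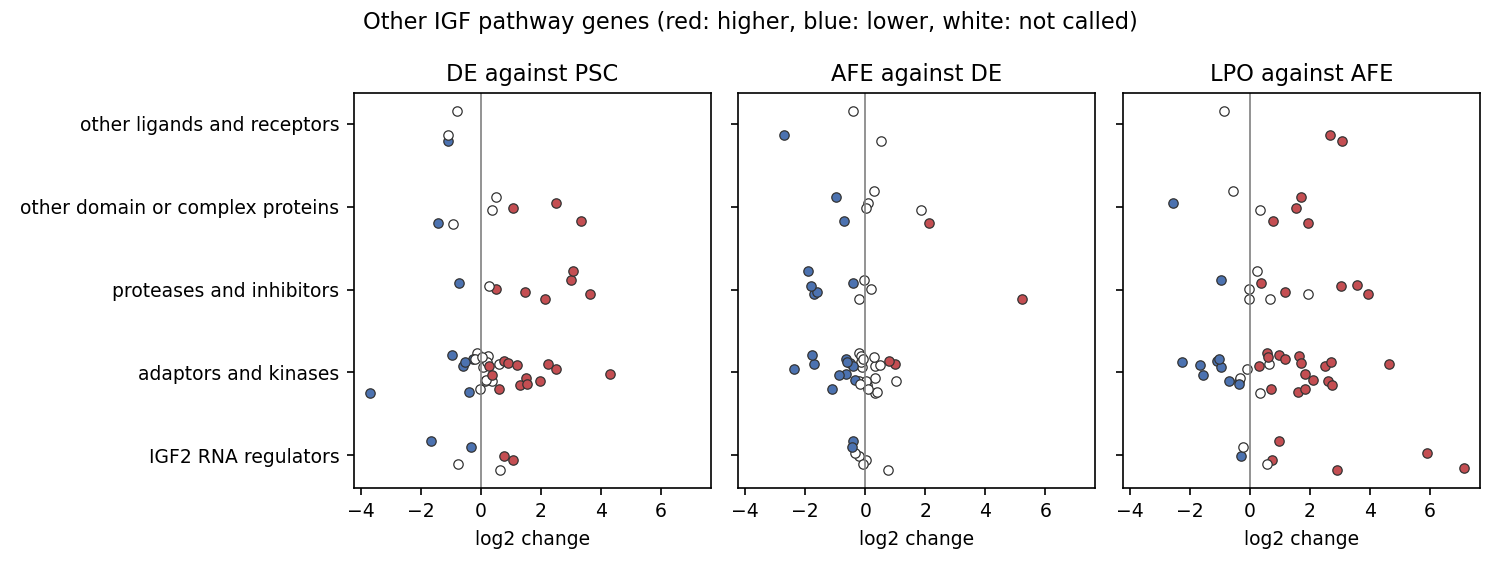
Fitted log2 change (x axis) of the other pathway genes by role (y axis, jittered) at the 3 steps, for the 54, 56 and 59 genes above 3 read pairs in both stages. Red points were called higher, blue lower and white not called; most called points lie left of 0 in AFE against DE and right of 0 in LPO against AFE.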

How the data were processed

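Per the labels' protocols, Trizol-extracted polyadenylated RNA gave strand-marked libraries that were read from both ends. Of tools, the submitters' processing notes list DESeq2, edgeR, StringTie 2.1.6, HISAT2 2.2.1 and cutadapt 1.9, with no roles; a genome build was not given in the sources used here. The deposited table holds the authors' expected counts, which are whole numbers not scaled to a common library total, and the authors' FPKM. A member's ratio of FPKM to its share of the library's counts varied by at most 1.05-fold among libraries. Column headers EPSC and Organoid were matched to PSC and LPO by the sample titles.

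Symbols came from the table (15435 genes), a gene name table (130) and NCBI gene numbers in the descriptions (114). R 4.3.3 with edgeR 4.0.16 fitted all 8 libraries with stage as the only term (filterByExpr, TMM, glmQLFit with 4 residual degrees of freedom, glmQLFTest); the code was tested on simulated data. limma 3.58.1 and DESeq2 1.42.0 served as alternatives, and figures used Python 3.11.15 with matplotlib 3.10.9. Reads from PCR without molecular identifiers are not independent molecules. AFE against PSC and LPO against DE were added after the data were seen.

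Members, lists and tests were chosen with earlier results of these data known. Named genes are all members, the 2 genes most like each, IGF1 and INSR, the 4 further pathway genes with the smallest adjusted p per comparison, and those called at 4-fold or more that reach 5 FPKM in a stage. PAPPA and IRS4 were named besides, after their values were seen; 1 further gene that the rule names is not reported here. No sequences are shown, since the tables used here hold none.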

Additional observations from a re-analysis of the deposited data

How the results depend on the processing

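Alternatives were 2 other filters, 2 other scalings, limma on FPKM with pseudocounts of 1 and 0.1, the DESeq2 Wald test, counts divided by 4, only the libraries compared, a replicate block, and each library left out. In DE against PSC and LPO against PSC the counts of members called, 7 and 9, were the same under each of them. They ran from 8 to 9 in AFE against DE and from 7 to 9 in LPO against AFE. Among the further pathway genes, those called in AFE against DE ran from 14 to 34 when 1 library was left out (28 with all).

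Of 648 values of single members in the 4 planned comparisons, 629 kept direction and side of the threshold, 9 turned direction, 8 passed it newly and 2 no longer did. The log2 change of IGF2 in LPO against AFE was 0.000958 on library totals, and 0.00741 and 0.00756 with limma at pseudocounts of 1 and 0.1. That of IGFBP2 was 0.0485, 0.0556 and 0.0557 in the same order. IGF1R in DE against PSC was at -0.0487 with DESeq2 size factors and -0.0451 in the Wald test, and ran from -0.11 (without PSC replicate 1) to 0.38 (without PSC replicate 2). The scaling moved the level of LPO against AFE; the cause of the rest was not tested. Pseudocounts understate low genes: the IGF2 log2 change in DE against PSC was 4.04 with a pseudocount of 1.

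Over all genes tested, deviations of replicate 1 from the stage means correlated between stages at -0.0136 to 0.0078. No pairing by replicate number was seen in this measure, which could miss a pairing that touched few genes. With the replicate number as a block, members called stayed at 7, 8, 8 and 9 and further genes went from 37, 28, 47 and 53 to 36, 26, 47 and 53. IGFBP4 in AFE against PSC was called under the block (log2 change -0.28, adjusted p = 0.047). IGF2 in LPO against DE (log2 change 0.81, adjusted p = 0.026) was no longer called without DE replicate 2 (0.50) or without either AFE or LPO library (0.72 to 0.85). Depth limits IGF2 in PSC and IGF1 at all stages, where single read pairs decide the value.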
